A study of Mus musculus with 40 samples.

Results

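The genes described here are 10 genes by which mouse macrophages are told apart: Adgre1, Cd81, Csf1r and Mrc1 as genes of resident macrophages, Cd68 as a gene of macrophages in general, and Ly6c2, Chil3, Arg1, Spp1 and Gpnmb as genes of recruited or alternatively activated macrophages. They were taken by name from 3 deposited tables of read counts, on the condition that the counts of the Control libraries were the same in both tables that hold them. All 10 met this condition, as did 55787 of the 55861 names that stand in both tables. RNA of whole kidney from C57BL/6 wild-type mice was sequenced. The temporal table holds kidneys without treatment (Control) and kidneys 6, 24, 48 and 72 h after reperfusion, whose blood flow was first cut off (IRI, ischaemia-reperfusion injury). The therapy table holds IRI kidneys given primary human mesenchymal stromal cells from umbilical cord (UC-MSC) or from bone marrow (BM-MSC), untreated IRI kidneys labelled 6 h (AKI), and the same Control libraries. The time of the UC-MSC and BM-MSC kidneys is not stated in the labels. The sham table holds kidneys 24 h after surgery without ischaemia (sham 24 h) and kidneys of its own unoperated mice (sham control). The treatment field of the sham 24 h libraries reads IRI, while their titles and their source field give surgery without IRI, which is followed here. Every group had 4 libraries. Age, sex and whether the libraries of a group came from separate mice are not stated, so p-values measure the spread between these libraries, which may be technical.

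Resident kidney macrophages are seeded largely before birth and depend on signalling through the receptor CSF1R, whose ligands are CSF1 and IL-34. After injury, circulating monocytes that carry Ly-6C enter the kidney and differentiate into macrophages that clear debris and take up repair programmes. Several of the genes used to mark these states are also made by other cells: Spp1 by tubular epithelium, Chil3 by neutrophils, Cd81 by most cell types, and Arg1 by liver. In whole kidney RNA, fewer cells of a type and less RNA per cell cannot be told apart.

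Libraries of the Control, 6 h, AKI, BM-MSC and UC-MSC groups held 13007496 to 18538186 counts. Those at 24 h held 6748371 to 13617363, those at 48 h 5475781 to 7088364 and those at 72 h 4658171 to 5385709. The sham table was deeper, with 26601247 to 37097091. The 6 proximal tubule markers summed to 599.7 to 675 CPM (counts scaled to library size with edgeR's TMM method) at 72 h and 10210.4 to 12818 CPM in Control, and none was at 0 in any group. Library AKI 1 correlated with the other AKI libraries at 0.746 to 0.759 and with Control 1 at 0.803 (log2 CPM of the 3000 most variable genes). Library BM-MSC 4 was closer to UC-MSC 1 (0.940) than to its own group (0.875 to 0.909), UC-MSC 4 correlated with its group at 0.818 to 0.881, and IRI 6 h 1 with its group at 0.874 to 0.900. The 72 h libraries correlated with their own group at 0.737 to 0.791, and each was closer to a 48 h library (0.777 to 0.822). The 48 h libraries correlated with their own group at 0.792 to 0.870. IRI 48 h 1 was slightly closer to IRI 24 h 2 (0.816) than to its own group (at most 0.815). The AKI labels repeat the library names and the time of the IRI 6 h libraries, but their counts differ. Repeated lines of the tables showed that Control and 6 h were joined as one block and 24, 48 and 72 h as another, and that AKI came from another block than Control, UC-MSC and BM-MSC. Groups of different blocks cannot be told apart from the blocks themselves. The share of counts in mitochondrial ribosomal RNA was 0.180 to 0.219% in Control, 0.238 to 0.499% at 6 h, 1.57 to 2.0% at 24 h, 2.53 to 4.31% at 48 h and 2.94 to 3.0% at 72 h. It was 0.250 to 0.451% in UC-MSC, 0.153 to 0.264% in BM-MSC and 0.944 to 2.39% in AKI. The name Cep85 took 0.0106 to 0.0135% of counts in Control, 0.0745 to 0.230% at 6 h, 0.926 to 0.996% at 24 h, 3.17 to 10.7% at 48 h and up to 12.8% at 72 h, and at most 0.162% in the other groups. The part of both shares in the results was not tested.

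After IRI the 10 genes did not move as one set. Cd68, Spp1, Chil3 and Arg1 rose against Control at all 4 times, while Csf1r fell at all 4 times and Cd81 fell from 24 h on. The edgeR quasi-likelihood test with Benjamini-Hochberg adjustment over all genes, at an adjusted p under 0.05, called 7 of the 10 at 6 h (6 higher, 1 lower), where 18.9% of the 16660 genes tested were called (10.3% higher, 8.53% lower). At 24 h it called 7 (5 higher, 2 lower) against 42.0% of all genes (21.8% higher, 20.2% lower). At 48 h it called 6 (4 higher, 2 lower) against 53.7% (26.9% higher, 26.8% lower), and at 72 h 7 (4 higher, 3 lower) against 56.3% (26.7% higher, 29.6% lower). The share of members called stood well above that of all genes at 6 h and came near to it at 48 h. The median log2 fold change of the 5 recruited or alternative genes was 3.42 at 6 h, 3.06 at 24 h, 2.92 at 48 h and 2.09 at 72 h, where the 72 h value is the same with Ly6c2 set at its bound. The 4 resident genes had medians of 0.30, -0.39, -1.11 and -1.88 at the same times. Of these 4, only Csf1r and Cd81 were called lower. The median of the 12 other genes of resident macrophages tested, described below, stayed above 0 at each time. The test called 1, 1, 2 and 2 of these 12 lower at the same times. Their medians were 1.23, 0.39, 0.16 and 0.34. Over all genes tested the median lay between -0.0717 and 0.0519.

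**Figure D1:**
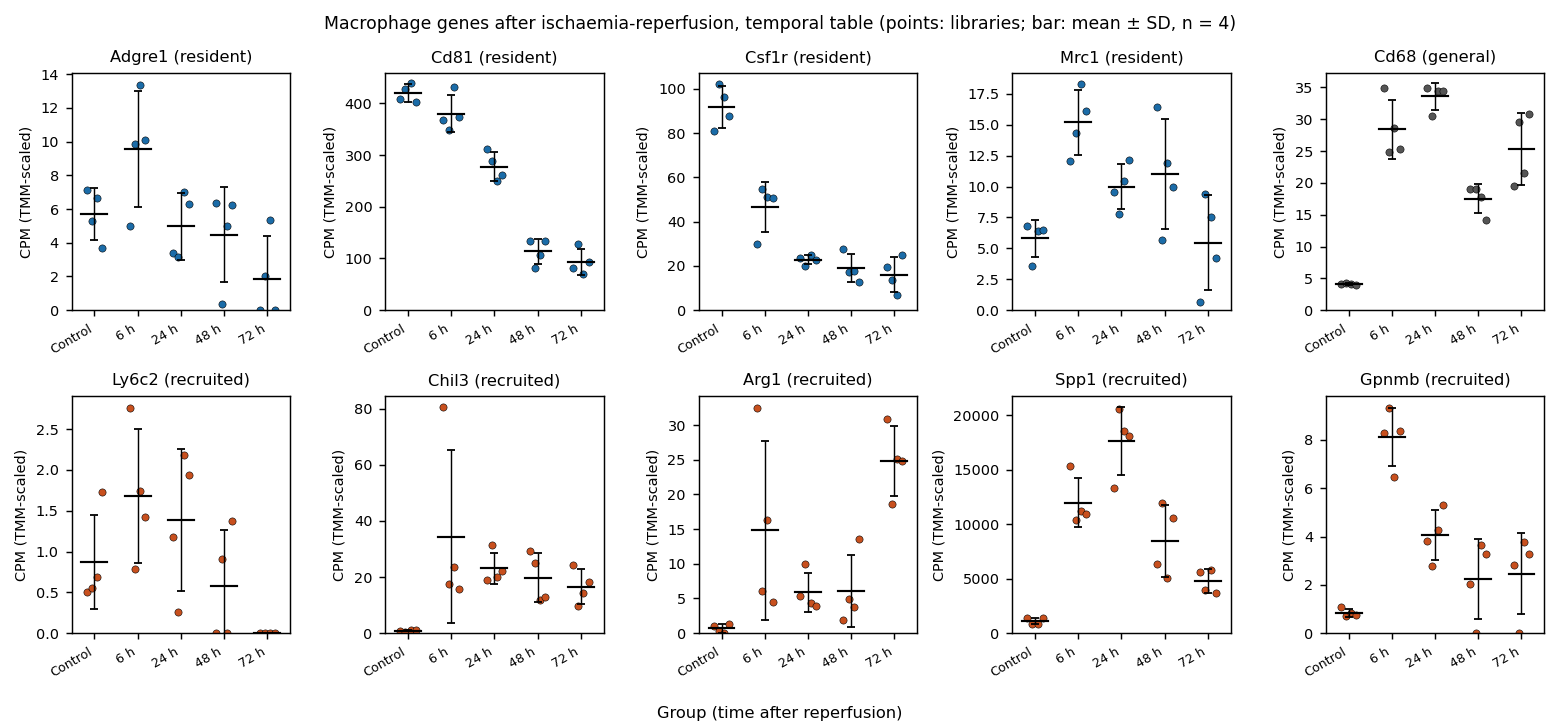
Each panel plots 1 gene of the temporal table, with the group on the x axis (Control, then hours after reperfusion) and CPM after TMM scaling on the y axis, which starts at 0. Points are the 4 libraries, and the line and bars are their mean ± SD. Csf1r is lower in every IRI library than in every Control library, Cd68 lies between 3.89 and 4.34 CPM in Control and between 14.1 and 35.0 CPM in IRI libraries, and 1 of the 4 libraries at 6 h holds the high Chil3 value of 80.4 CPM.

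Csf1r, the receptor through which CSF1 and IL-34 keep macrophages alive, held 80.7, 102, 96.4 and 87.7 CPM in the Control libraries. It fell to 29.8, 54.9, 51.2 and 50.6 CPM at 6 h, 23.6, 20.1, 24.8 and 22.6 CPM at 24 h, 27.8, 17.4, 17.8 and 12.8 CPM at 48 h and 19.4, 13.5, 6.76 and 24.8 CPM at 72 h. No IRI library reached the lowest Control library, and the ranges at 24, 48 and 72 h overlapped one another. The log2 fold change against Control was -0.98 ± 0.27 (adjusted p = 0.013) at 6 h, -2.01 ± 0.28 (adjusted p = 4.4e-06) at 24 h, -2.27 ± 0.29 (adjusted p = 6.4e-07) at 48 h and -2.52 ± 0.30 (adjusted p = 1.8e-07) at 72 h, each given ± SE. Without IRI 6 h library 1 the 6 h fall was -0.81 (adjusted p = 0.058), and with total counts in place of TMM it was -0.82 (adjusted p = 0.053). Thick ascending limb markers (3 genes) were lower beside Csf1r. They summed to 4570 to 5054 CPM in Control, 1475 to 2349 CPM at 6 h and 236 to 457 CPM at 24 h. At 48 h they summed to 395 to 833 CPM and at 72 h to 550 to 636 CPM. Their part in the fall of Csf1r was not tested.

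Cd81 encodes a tetraspanin of the plasma membrane that marks resident macrophages in mouse kidney and is also widespread in other cells. It held 409, 428, 440.0 and 402 CPM in Control and 368, 349, 431 and 374 CPM at 6 h, which overlapped. It then fell to 312, 288, 249.6 and 261 CPM at 24 h, 133, 81.8, 107 and 133 CPM at 48 h and 82.4, 129, 70.2 and 93.8 CPM at 72 h. From 24 h on every IRI library lay below every Control library, with log2 fold changes of -0.60 ± 0.16 (adjusted p = 0.0052), -1.88 ± 0.17 (adjusted p = 4.2e-09) and -2.16 ± 0.17 (adjusted p = 4.8e-10) at 24, 48 and 72 h, against -0.14 ± 0.16 (adjusted p = 0.64) at 6 h.

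The other 2 resident genes did not fall in the test. Adgre1, which encodes the F4/80 antigen, ranged over 3.68 to 7.15 CPM in Control, 5.0 to 13.4 CPM at 6 h, 3.18 to 7.03 CPM at 24 h, 0.366 to 6.37 CPM at 48 h and 0 to 5.37 CPM at 72 h. At 72 h 2 of the 4 libraries had no Adgre1 count and another had 27, so the group held both ends of the range, and its log2 fold change was -1.59 ± 0.84 (adjusted p = 0.11). Without IRI 72 h library 3 it was -3.01 (adjusted p = 0.0095). Mrc1, the mannose receptor CD206 that binds and takes up glycoproteins, rose to 12.1, 14.4, 18.3 and 16.1 CPM at 6 h, against 6.77, 3.57, 6.40 and 6.45 CPM in Control. Every 6 h library was above every Control library, with a log2 fold change of 1.39 ± 0.47 (adjusted p = 0.04). That call was lost in each of the 8 fits that left out 1 of these libraries, with values between 1.21 and 1.49. At 24, 48 and 72 h Mrc1 was at 7.75 to 12.1, 5.67 to 16.5 and 0.652 to 9.38 CPM, with log2 fold changes of 0.78 ± 0.47 (adjusted p = 0.19), 0.93 ± 0.47 (adjusted p = 0.1) and -0.08 ± 0.48 (adjusted p = 0.89). Every 24 h library lay above every Control library. With only the groups compared, edgeR called Mrc1 higher at 24 h (adjusted p = 0.0045) and Adgre1 higher at 6 h (adjusted p = 0.044). That setting called 11572 of 15899 genes at 24 h and 7449 of 15509 at 6 h. DESeq2 called Mrc1 higher at 48 h (adjusted p = 0.037), where 5103 of 16660 genes were higher and 4296 lower.

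Cd68, a glycoprotein of lysosomes and late endosomes in phagocytes, rose at every time. It held 4.12, 4.34, 4.06 and 3.89 CPM in Control, 34.9, 24.9, 28.6 and 25.3 CPM at 6 h, 35.0, 30.5, 34.4 and 34.5 CPM at 24 h, 19.0, 19.0, 17.8 and 14.1 CPM at 48 h and 19.6, 29.6, 21.5 and 30.9 CPM at 72 h. The lowest IRI library was above the highest Control library. The log2 fold changes were 2.79 ± 0.21 (adjusted p = 7.8e-09) at 6 h, 3.03 ± 0.22 (adjusted p = 2.7e-10) at 24 h, 2.09 ± 0.21 (adjusted p = 2.5e-08) at 48 h and 2.63 ± 0.22 (adjusted p = 7.5e-10) at 72 h. Cd68 and Csf1r thus moved in opposite directions in the same libraries.

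The ratio of Cd68 reads to Csf1r reads within a library, which does not depend on scaling between libraries, was compared next. The ratio was chosen after the values were seen and is given as a description. There were 0.0510, 0.0424, 0.0421 and 0.0443 Cd68 reads per Csf1r read in the Control libraries. At 6 h there were 1.17, 0.454, 0.559 and 0.500, at 24 h 1.48, 1.52, 1.39 and 1.52, at 48 h 0.682, 1.09, 1.00 and 1.11 and at 72 h 1.01, 2.20, 3.18 and 1.25. No IRI library came near the Control range, and the 24 h libraries lay within a narrow band.

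**Figure D2:**
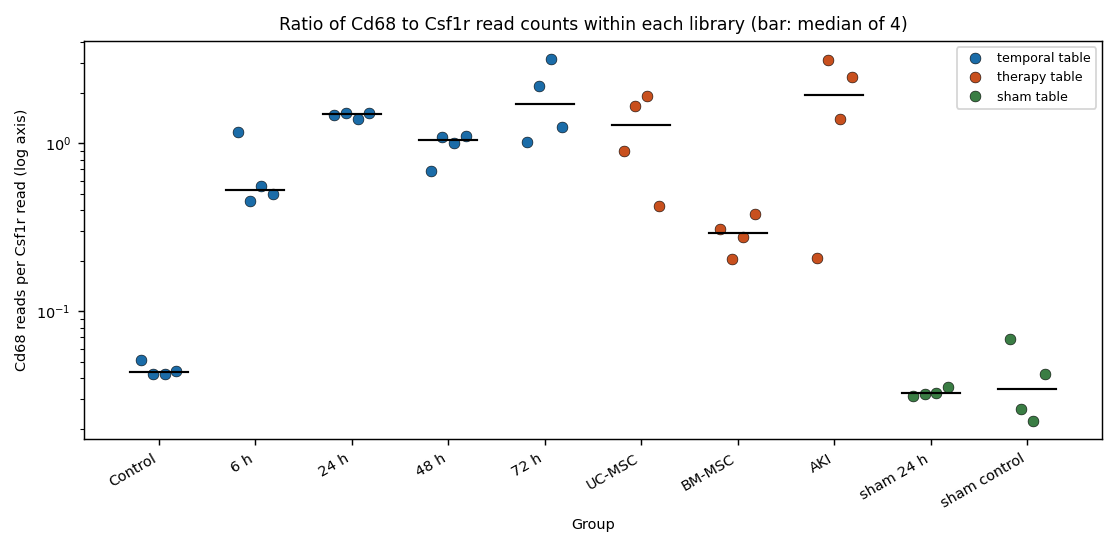
Reads of Cd68 per read of Csf1r in each library (log axis), by group of the temporal, therapy and sham tables. Points are libraries and bars are medians of 4. IRI libraries of the temporal table lie between 0.454 and 3.18, and Control and both sham groups at or below 0.0680.

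Spp1, which encodes the secreted phosphoprotein osteopontin, rose against Control at all 4 times. It held 1412, 871, 828 and 1372 CPM in Control and rose to 15345, 10412, 11217 and 10922 CPM at 6 h and 13273, 20578, 18572 and 18096 CPM at 24 h. It was at 6307, 11894, 5094 and 10520.4 CPM at 48 h and 5635, 3963, 5779 and 3720.3 CPM at 72 h, still above every Control library. The log2 fold changes were 3.42 ± 0.27 (adjusted p = 9.1e-09), 3.98 ± 0.28 (adjusted p = 2.0e-10), 2.92 ± 0.26 (adjusted p = 3.9e-09) and 2.09 ± 0.25 (adjusted p = 3.1e-07) at 6, 24, 48 and 72 h. Tubular epithelium also makes osteopontin, and the 7 injured tubule markers moved beside it: they summed to 680.2 to 787 CPM in Control, 3907 to 6548 CPM at 6 h, 5414 to 8259.9 CPM at 24 h, 1956 to 2918 CPM at 48 h and 1930.2 to 2573 CPM at 72 h. Of these 7 markers, 7 rose at 6 h and 6 at each later time, with none lower, for example Sox9, a transcription factor of tubular repair, by 4.37, 4.88, 4.22 and 3.93 on the log2 scale. Their part in the rise of Spp1 was not tested.

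The promoters of Cd68, Spp1 and Gpnmb, which rose at 6 and 24 h, are shown as examples of the genes that rose, from 250 bases before to 50 after the RefSeq transcription start (build GRCm38.p6, for Spp1 the first of 2 listed starts). RefSeq promoters were matched for 7 of the 10 genes. Both strands were searched for GAGGAAG (a PU.1 motif, PU.1 being the lineage factor of macrophages), CACGTG and CATGTG (motifs of the MITF/TFE factors of lysosomal genes) and TGANTCA (AP-1), and matches are in capitals.
Cd68, chr11:69666121-69666420, minus strand: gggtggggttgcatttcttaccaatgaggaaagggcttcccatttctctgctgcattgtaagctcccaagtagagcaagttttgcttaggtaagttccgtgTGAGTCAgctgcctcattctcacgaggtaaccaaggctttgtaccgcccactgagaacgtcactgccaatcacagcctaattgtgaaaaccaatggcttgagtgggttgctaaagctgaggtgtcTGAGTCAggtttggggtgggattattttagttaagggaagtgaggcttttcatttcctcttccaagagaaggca
Spp1, chr5:104434861-104435160, plus strand: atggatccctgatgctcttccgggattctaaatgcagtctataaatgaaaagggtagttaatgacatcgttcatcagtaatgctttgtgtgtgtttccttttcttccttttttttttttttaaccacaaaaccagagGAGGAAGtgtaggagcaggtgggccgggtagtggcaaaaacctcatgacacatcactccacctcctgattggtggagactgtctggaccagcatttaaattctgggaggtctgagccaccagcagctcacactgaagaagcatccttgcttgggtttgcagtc
Gpnmb, chr6:49036268-49036567, plus strand: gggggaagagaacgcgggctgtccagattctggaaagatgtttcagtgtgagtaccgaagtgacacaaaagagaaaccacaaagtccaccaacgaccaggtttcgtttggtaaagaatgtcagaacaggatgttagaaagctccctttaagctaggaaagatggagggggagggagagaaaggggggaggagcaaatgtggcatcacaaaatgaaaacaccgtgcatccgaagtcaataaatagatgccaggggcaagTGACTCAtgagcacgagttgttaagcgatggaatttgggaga
The Cd68 window holds the AP-1 motif at 2 places, the Gpnmb window holds it once, just after the start, and the Spp1 window holds 1 PU.1 motif. AP-1 letters stood in 7.81% of all 32851 promoter windows of the RefSeq table, PU.1 letters in 13.6%, CATGTG in 14.2% and CACGTG in 7.15%. Of the 7 genes matched, 3 held the PU.1 letters (Mrc1, Spp1 and Ly6c2), 2 the AP-1 letters (Cd68 and Gpnmb), 1 CATGTG (Mrc1) and 0 CACGTG. The window of the second Spp1 start and that of Chil3, which rose as well, held 0 of the 4 motifs and are not shown. These matches describe letters in a window and say nothing of binding.

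Chil3, a chitinase-like secreted protein also called Ym1, rose at all 4 times. It held 0.886, 0.490, 1.17 and 1.18 CPM in Control and 80.4, 17.7, 23.5 and 15.9 CPM at 6 h, where library 1 stood far above the others. At 24 h it was at 18.9, 31.3, 20.2 and 22.0 CPM, at 48 h at 29.2, 24.9, 11.8 and 12.8 CPM and at 72 h at 24.1, 9.79, 14.3 and 18.2 CPM, with no overlap with Control at any time. The log2 fold changes were 5.19 ± 0.54 (adjusted p = 3.4e-07), 4.61 ± 0.53 (adjusted p = 2.4e-07), 4.38 ± 0.53 (adjusted p = 2.9e-07) and 4.14 ± 0.53 (adjusted p = 6.0e-07) at 6, 24, 48 and 72 h, and the first was 4.33 without IRI 6 h library 1. Neutrophils also make Chil3, and the neutrophil markers moved beside it. All 4 of the neutrophil genes tested in the temporal table rose at 6 h, for example S100a8 by 5.80 and Retnlg by 6.94 on the log2 scale. The 7 listed neutrophil genes that could be used there summed to 2.96 to 5.0 CPM in Control, 52.5 to 485 CPM at 6 h, 24.2 to 59.9 CPM at 24 h, 31.3 to 63.9 CPM at 48 h and 21.3 to 28.8 CPM at 72 h, and Ly6g and Ngp had no count in Control, at 48 h or at 72 h. Their part in the rise of Chil3 was not tested. Chil4, a near copy of Chil3 between which reads could be split, had at most 9 counts in any temporal library and did not pass the count filter.

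Arg1, the arginase that turns arginine into ornithine and urea, was low in Control, with 16, 4, 1 and 20 counts. It held 32.5, 6.02, 16.3 and 4.54 CPM at 6 h, 5.31, 9.91, 4.29 and 3.98 CPM at 24 h, 1.87, 4.94, 3.80 and 13.6 CPM at 48 h and 30.9, 18.6, 25.1 and 24.8 CPM at 72 h, against 1.01, 0.280, 0.0688 and 1.39 CPM in Control. The 4 libraries at 72 h were all high, while at 6 h the libraries spread widely. Log2 fold changes were 4.40 ± 0.75 (adjusted p = 1.6e-04) at 6 h, 3.06 ± 0.72 (adjusted p = 0.0015) at 24 h, 3.10 ± 0.73 (adjusted p = 0.001) at 48 h and 5.14 ± 0.77 (adjusted p = 5.5e-06) at 72 h.

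Gpnmb, a transmembrane glycoprotein of lysosome-rich phagocytes, held 1.08, 0.70, 0.825 and 0.763 CPM in Control, 8.28, 9.34, 6.46 and 8.35 CPM at 6 h and 3.84, 2.80, 4.29 and 5.30 CPM at 24 h. At 48 and 72 h it was at 2.02, 0, 3.67 and 3.28 CPM and 2.83, 0, 3.78 and 3.27 CPM, and 1 library of each of these groups had no count. The log2 fold change was 3.25 ± 0.84 (adjusted p = 0.0076) at 6 h and 2.25 ± 0.82 (adjusted p = 0.03) at 24 h, and the test did not call it at 48 h (1.41, adjusted p = 0.15) or 72 h (1.54, adjusted p = 0.12). The 24 h call was lost in 7 of the 8 fits that left out 1 library. Without the library that had no count, the value was 1.77 at 48 h (adjusted p = 0.036) and 1.91 at 72 h (adjusted p = 0.022).

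Ly6c2, the Ly-6C antigen of classical monocytes, was the exception among the recruited genes. Its counts were 8, 8, 10 and 25 in Control, 37, 15, 24 and 25 at 6 h, 8, 2, 31 and 19 at 24 h, 0, 5, 0 and 8 at 48 h and 0, 0, 0 and 0 at 72 h. The test called no difference at 6, 24 or 48 h, with log2 fold changes of 0.93 ± 1.03 (adjusted p = 0.62), 0.68 ± 1.03 (adjusted p = 0.64) and -0.63 ± 1.08 (adjusted p = 0.65). At 72 h, where all 4 libraries were at 0, Ly6c2 was at least 5.42-fold lower than in Control (adjusted p = 0.0089), taking 3 counts summed over the 4 libraries as the floor, which covers counting error only. The 72 h libraries were also the shallowest. Ly6c1, a near copy of Ly6c2 that endothelium makes and between which reads could be split, stood far higher, at 124 to 155 CPM at 72 h and 71.3 to 85.2 CPM in Control, and rose by 0.83 on the log2 scale (adjusted p = 0.013).

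Between neighbouring times the test called few of the 10 genes. From 6 to 24 h it called 2, both lower at 24 h, against 28.8% of all genes (14.9% higher, 13.9% lower): Csf1r with -1.03 ± 0.28 (adjusted p = 0.0069) and Cd81 with -0.45 ± 0.16 (adjusted p = 0.041). The others, not called, were at -0.94 for Adgre1, -0.61 for Mrc1, 0.24 for Cd68, -0.26 for Ly6c2, -0.57 for Chil3, -1.34 for Arg1, 0.56 for Spp1 and, for Gpnmb, at an adjusted p of 0.37. The Cd81 step was lost in 5 of the 8 fits that left out 1 library, with an adjusted p of up to 0.12. From 24 to 48 h it called 3, all lower at 48 h, against 21.1% of all genes (9.01% higher, 12.1% lower): Cd81 with -1.29 ± 0.17 (adjusted p = 1.4e-05), Cd68 with -0.94 ± 0.20 (adjusted p = 0.0018) and Spp1 with -1.06 ± 0.25 (adjusted p = 0.0035). Not called were Adgre1 (-0.16), Csf1r (-0.26), Mrc1 (0.14), Ly6c2 (-1.30), Chil3 (-0.23), Arg1 (0.04) and Gpnmb (-0.84). Of 14 genes of lipid-handling macrophages, 12 were lower and 0 higher at 48 h than at 24 h. From 48 to 72 h the edgeR test called 0 of the 10, against 5.66% of all genes (2.03% higher, 3.63% lower). The log2 values were -1.25 for Adgre1, -0.28 for Cd81, -0.24 for Csf1r, -1.01 for Mrc1, 0.54 for Cd68, -0.24 for Chil3, 2.04 for Arg1, -0.82 for Spp1 and 0.13 for Gpnmb, and Ly6c2 was at 0 in every 72 h library (adjusted p = 0.1). At an unadjusted p under 0.05 it held 5 of them, beside 3424 of all 16660 genes. DESeq2 called 2, beside 1707 of all genes: Arg1 with 2.08 (adjusted p = 0.018) and Spp1 with -0.79 (adjusted p = 0.015).

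Other myeloid genes rose beside the members at 6 h. For this and the following lists, 10.3% of all genes were higher and 8.53% lower at 6 h, and 21.8% and 20.2% at 24 h. At 48 h the shares were 26.9% higher and 26.8% lower, and at 72 h 26.7% and 29.6%. Of 13 genes shared by myeloid cells, 9 rose and 0 fell at 6 h (median log2 fold change 1.5), 6 and 0 at 24 h (0.87), 5 and 0 at 48 h (0.67) and 7 and 2 at 72 h (0.63). Cd14, the co-receptor for bacterial lipopolysaccharide, rose by 3.17 at 6 h, and Fcer1g, the signalling chain of Fc receptors, by 2.14 at 6 h and 2.56 at 72 h. At 72 h the lysosomal protease gene Ctss fell, by 2.09 ± 0.47 (adjusted p = 6.0e-04). Of 11 monocyte genes 6 rose at 6 h, 4 at 24 h, 3 at 48 h and 4 at 72 h, with 2 lower at 72 h. The share that rose at 48 h lay near that of all genes. Itgam, the integrin chain CD11b, rose by 3.63 at 6 h and 3.94 at 24 h. At 72 h the chemokine receptor gene Ccr2, by which monocytes leave the bone marrow, fell (-1.89 ± 0.73, adjusted p = 0.031), while S100a4 was higher by 5.17.

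Of 12 other genes of resident macrophages tested, 5 rose and 1 fell at 6 h, and at 24, 48 and 72 h 2, 2 and 2 rose and 1, 2 and 2 fell. The shares at 24, 48 and 72 h lie below those of all genes in both directions. At 6 h Cd163, a scavenger receptor for haemoglobin, rose by 1.64 ± 0.49 (adjusted p = 0.021), and C1qb, a chain of complement C1q, by 1.48 ± 0.30 (adjusted p = 8.7e-04). Mertk, a receptor for apoptotic cells, fell by 2.14 ± 0.26 (adjusted p = 5.0e-07) at 24 h and fell by 2.10 ± 0.26 (adjusted p = 4.5e-07) at 72 h. At 72 h Stab1 rose by 2.19 and Lyve1 by 1.84, and both of these are also genes of sinusoidal or lymphatic endothelium.

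Of 14 genes of lipid-handling macrophages, which share Gpnmb and Spp1 as usual companions, 6 rose and 1 fell at 6 h, 8 and 2 at 24 h, 3 and 5 at 48 h, and 3 and 5 at 72 h. The counts at 48 and 72 h lay near the shares of all genes. Trem2, a lipid-sensing receptor of macrophages, rose by 3.16 at 6 h, 4.05 at 48 h and 4.05 at 72 h. Lgals3, the galectin gene, rose by 4.10 at 24 h, and Lipa, the lysosomal acid lipase, fell by 4.01 ± 0.37 (adjusted p = 6.5e-09) at 48 h and fell by 4.59 ± 0.39 (adjusted p = 1.3e-09) at 72 h. Several genes on that list, such as Lgals3, Ctsd and Apoe, are also made by tubular cells. Of 8 tested genes of alternative activation beside Chil3, Arg1 and Mrc1, 2 rose and 0 fell at 6 h, 2 and 1 at 24 h, 0 and 2 at 48 h, and 0 and 1 at 72 h. The 6 h rises were Il4ra, the receptor chain for interleukin 4, by 1.28 and Tgm2, a transglutaminase, by 1.05. Retnla fell by 3.14 ± 1.2 (adjusted p = 0.031) at 72 h.

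On the side of ligands and receptors, Csf1, which encodes the ligand of Csf1r, rose at all 4 times. Its log2 fold change was 2.20 ± 0.29 (adjusted p = 7.8e-06) at 6 h, 1.54 ± 0.29 (adjusted p = 1.2e-04) at 24 h, 1.32 ± 0.29 (adjusted p = 4.7e-04) at 48 h and 1.01 ± 0.29 (adjusted p = 0.005) at 72 h, and 1.29 ± 0.40 (adjusted p = 0.02) in AKI. The 72 h value is named outside the rule for named genes, after it was seen. Cd44, a receptor for osteopontin and hyaluronan, rose by 4.12, 2.59, 2.82 and 2.36 at 6, 24, 48 and 72 h. Of the 6 ligand and receptor genes tested, 4 rose and 0 fell at 6 h, 3 and 1 at 24 h, 3 and 2 at 48 h, and 3 and 2 at 72 h. Markers of other cells that a kidney holds were measured in the same libraries. Fibroblast markers (6 genes) summed to 1506 to 1777 CPM at 6 h and 339 to 426 CPM in Control, and endothelial markers (7 genes) to 609.6 to 857 CPM at 72 h and 600.2 to 638 CPM in Control, ranges that overlap. Of these 7 endothelial genes 2 rose and 1 fell at 72 h. Lymphocyte markers summed to at most 9.88 CPM in any temporal library, and dendritic cell markers to at most 20.4 CPM. Their part in the results was not tested.

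**Figure D3:**
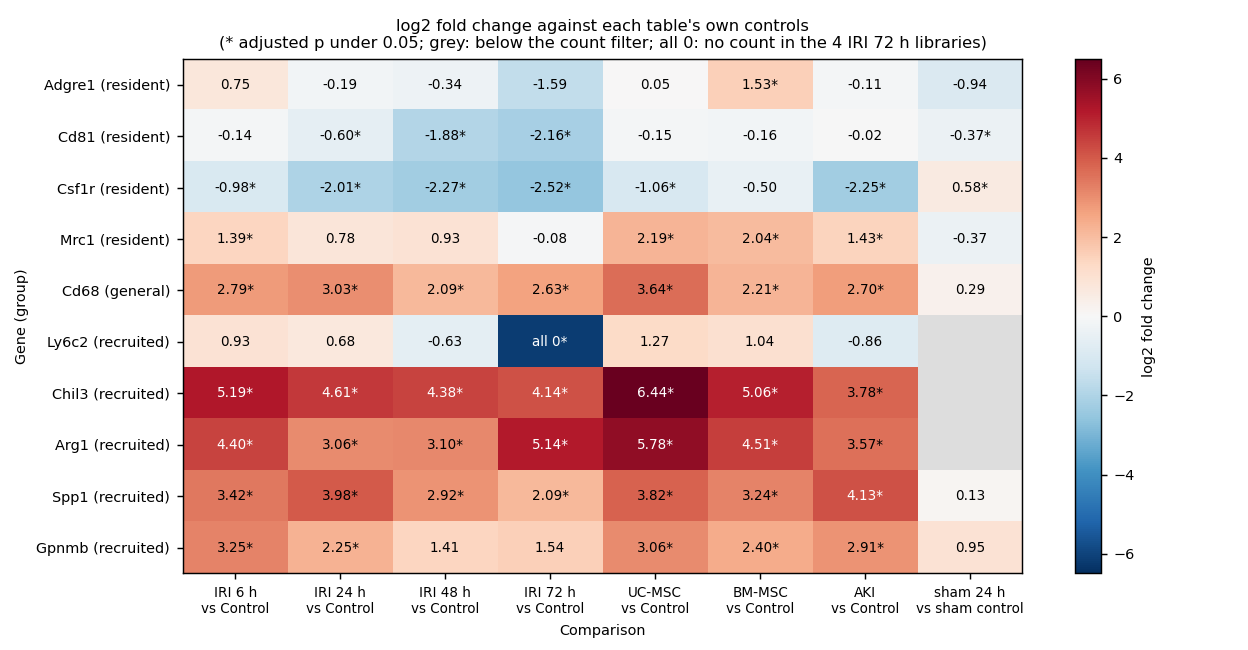
Log2 fold change of the 10 genes (rows) in the 8 comparisons with a table's own unoperated or untreated controls (columns), red for higher and blue for lower. An asterisk marks an adjusted p under 0.05, grey cells did not pass the count filter, and the cell marked all 0 has no count in the IRI 72 h libraries. Cd68, Chil3, Arg1 and Spp1 are higher in all 7 columns with IRI, and the sham column holds 2 asterisks.

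In the therapy table the untreated AKI kidneys, set against the same Control libraries, had 7 of the 10 genes called (6 higher, 1 lower), where 35.0% of 16640 genes were called. Csf1r fell to 30.4, 12.3, 16 and 12.9 CPM in AKI, against 75.4, 94.6, 88.2 and 82.2 CPM in Control, a log2 fold change of -2.25 ± 0.25 (adjusted p = 1.4e-05). Cd68 was at 6.30, 38.5, 22.2 and 32.1 CPM in AKI and 3.84, 4.01, 3.71 and 3.64 CPM in Control (2.70 ± 0.47, adjusted p = 5.0e-04), and Spp1 at 3121, 26657, 27009 and 15977 CPM in AKI and 1319, 806, 757 and 1286 CPM in Control (4.13 ± 0.58, adjusted p = 9.4e-05). Beside Spp1, 6 of 7 injured tubule markers rose in AKI, with sums of 2495 to 5065 CPM in AKI and 622 to 735 CPM in Control, and their part was not tested. Library AKI 1, which stood apart over all genes, held the lowest Cd68, Spp1, Gpnmb and Arg1 of its group and the highest Csf1r. Mrc1 rose (1.43 ± 0.32, adjusted p = 0.003), as did Gpnmb (2.91 ± 0.68, adjusted p = 0.004), Chil3 (3.78 ± 0.97, adjusted p = 0.007) and Arg1 (3.57 ± 1.17, adjusted p = 0.027). The Arg1 call was lost without Control 1, 2 or 3 or without AKI 2, with an adjusted p of up to 0.095. In AKI 1, Gpnmb was at 0.280 CPM, below the Control libraries (0.647 to 1.01 CPM). Arg1 in AKI 1 was at 0.490 CPM, within the range of Control (0.0629 to 1.30 CPM). Adgre1, Cd81 and Ly6c2 were not called, with log2 fold changes of -0.11, -0.02 and -0.86. Beside these changes, endothelial markers fell, 4 of 7 in the test, from a list that summed to 118 to 344 CPM in AKI and 549 to 589.8 CPM in Control. Plvap, a gene of capillary diaphragms, fell by 3.05 ± 0.30 (adjusted p = 7.2e-06).

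Kidneys given stromal cells also held more of most recruited genes than Control. In UC-MSC kidneys 7 of the 10 were called against Control (6 higher, 1 lower), against 37.1% of all genes (20.4% higher, 16.7% lower). In BM-MSC kidneys 7 were called (all higher), against 8.94% (6.57% higher, 2.36% lower). Chil3 was at 93.7, 82.6, 116 and 10.8 CPM in UC-MSC, 9.47, 4.57, 12.9 and 88.8 CPM in BM-MSC and 0.828, 0.453, 1.07 and 1.11 CPM in Control. Every UC-MSC and BM-MSC library was above every Control library, and BM-MSC 4 was about as high as the UC-MSC libraries 1 to 3. Its log2 fold change was 6.44 ± 1.04 (adjusted p = 2.6e-04) in UC-MSC and 5.06 ± 0.99 (adjusted p = 0.0061) in BM-MSC. Without BM-MSC 4 the BM-MSC value was 3.37 (adjusted p = 0.019). Arg1 was at 58.3, 27.6, 50.5 and 5.85 CPM in UC-MSC and 2.19, 4.15, 5.51 and 47.3 CPM in BM-MSC, against 0.946, 0.259, 0.0629 and 1.30 CPM in Control, with log2 fold changes of 5.78 ± 1.23 (adjusted p = 0.002) and 4.51 ± 1.19 (adjusted p = 0.027). Again BM-MSC 4 held the high value of its group, and without it Arg1 was at 2.61 in BM-MSC (adjusted p = 0.18).

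Cd68 held 39.7, 49.4, 80.4 and 19.7 CPM in UC-MSC, 16.7, 13.7, 14.6 and 25.3 CPM in BM-MSC and 3.84, 4.01, 3.71 and 3.64 CPM in Control, a rise of 3.64 ± 0.48 (adjusted p = 6.4e-05) in UC-MSC and 2.21 ± 0.46 (adjusted p = 0.0085) in BM-MSC. Spp1 rose by 3.82 ± 0.57 (adjusted p = 1.5e-04) in UC-MSC and 3.24 ± 0.56 (adjusted p = 0.0031) in BM-MSC, and Gpnmb by 3.06 ± 0.68 (adjusted p = 0.0028) and 2.40 ± 0.67 (adjusted p = 0.036). Of the resident genes, Mrc1 rose in both, with 29.1, 16.5, 36.7 and 15.7 CPM in UC-MSC and 24.3, 18.8, 17.4 and 28.2 CPM in BM-MSC against 6.33, 3.30, 5.85 and 6.05 CPM in Control (2.19 ± 0.33, adjusted p = 1.4e-04 and 2.04 ± 0.32, adjusted p = 0.0021). Csf1r fell in UC-MSC (44.1, 29.8, 42.4 and 46.8 CPM, -1.06 ± 0.24, adjusted p = 0.0029) and was not called in BM-MSC (53.9, 67.1, 52.4 and 67.0 CPM, -0.50 ± 0.24, adjusted p = 0.2), although every BM-MSC library lay below every Control library. Adgre1 rose in BM-MSC (14.8, 12.1, 12.9 and 21.5 CPM, 1.53 ± 0.41, adjusted p = 0.029) and was not called in UC-MSC (0.05). Cd81 was not called in UC-MSC (-0.15) or BM-MSC (-0.16), nor was Ly6c2 (1.27, adjusted p = 0.095, in UC-MSC and 1.04, adjusted p = 0.28, in BM-MSC). Without BM-MSC 4 the calls of Adgre1, Arg1 and Gpnmb in BM-MSC were lost and 4 of the 10 genes were called. Leaving out any one Control library lost the same 3 calls. Injured tubule markers (7 genes) summed to 3068 to 6325 CPM in UC-MSC, 2029 to 4259.8 CPM in BM-MSC and 622 to 735 CPM in Control. Neutrophil markers summed to 54.1 to 559 CPM in UC-MSC, 13.3 to 347 CPM in BM-MSC and 2.70 to 4.68 CPM in Control. Their part in the results was not tested.

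**Figure D4:**
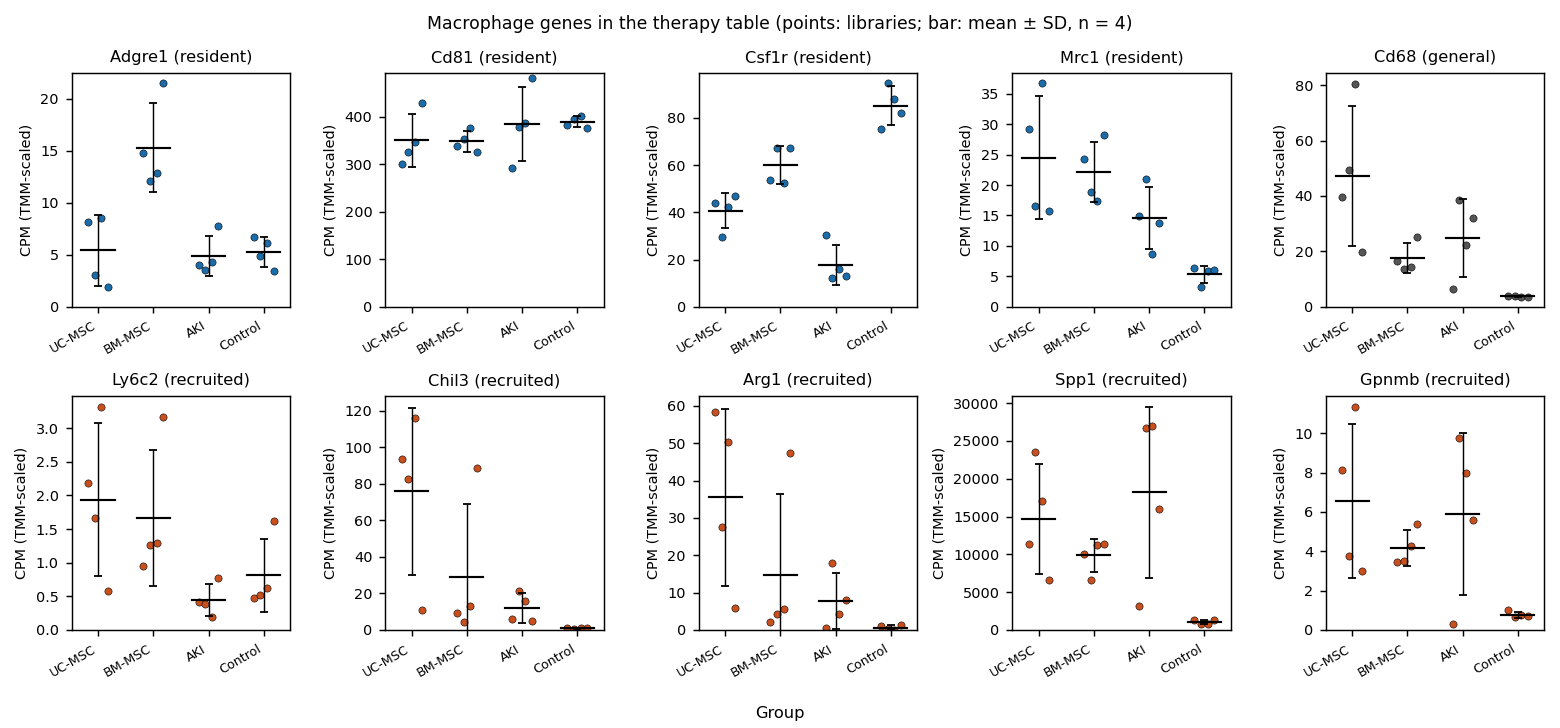
Each panel plots 1 gene of the therapy table, with the group on the x axis and CPM after TMM scaling on the y axis, which starts at 0. Points are the 4 libraries, and the line and bars are their mean ± SD. Adgre1 is highest in BM-MSC, between 12.1 and 21.5 CPM, Csf1r is lowest in AKI, between 12.3 and 30.4 CPM, and single libraries stand apart for Chil3 and Arg1 in BM-MSC.

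Against untreated AKI kidneys, the resident gene Csf1r was higher with either cell type. It held 44.1, 29.8, 42.4 and 46.8 CPM in UC-MSC, 53.9, 67.1, 52.4 and 67.0 CPM in BM-MSC and 30.4, 12.3, 16 and 12.9 CPM in AKI. The BM-MSC and AKI libraries did not overlap, and the UC-MSC range met that of AKI only at AKI 1. The log2 fold change was 1.19 ± 0.24 (adjusted p = 0.0013) for UC-MSC and 1.75 ± 0.24 (adjusted p = 1.1e-04) for BM-MSC. Adgre1 was higher in BM-MSC (12.1 to 21.5 CPM) than in AKI (3.58 to 7.72 CPM) by 1.64 ± 0.41 (adjusted p = 0.0065), and in UC-MSC it was not called (1.92 to 8.51 CPM, 0.15 ± 0.41, adjusted p = 0.78). Among the recruited genes Ly6c2 was higher in UC-MSC (40, 26, 53 and 6 counts) and in BM-MSC (17, 21, 23 and 68 counts) than in AKI (6, 6, 3 and 13 counts), by 2.12 ± 0.61 (adjusted p = 0.011) and 1.90 ± 0.60 (adjusted p = 0.024), at low counts in all groups. The Ly6c2 call for BM-MSC was lost without AKI 2, AKI 3 or BM-MSC 4, with an adjusted p of up to 0.104. Chil3 was higher in UC-MSC than in AKI by 2.66 ± 0.83 (adjusted p = 0.017), which was lost without AKI 4 (adjusted p = 0.052), and in BM-MSC it was not called (1.28 ± 0.79, adjusted p = 0.23, and -0.41, adjusted p = 0.67, without BM-MSC 4). In all, 3 of the 10 genes were called in each comparison, all higher, where 40.4% of all genes were called for UC-MSC (20.3% higher, 20.1% lower) and 33.3% for BM-MSC (16.3% higher, 17.1% lower). Cd81, Cd68, Spp1, Arg1, Mrc1 and Gpnmb were called in neither. Their values for UC-MSC were -0.13 for Cd81, 0.93 for Cd68, -0.31 for Spp1, 2.21 for Arg1, 0.76 for Mrc1 and 0.15 for Gpnmb. For BM-MSC they were -0.14 for Cd81, -0.50 for Cd68, -0.89 for Spp1, 0.94 for Arg1, 0.61 for Mrc1 and -0.51 for Gpnmb.

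These differences from AKI rested on which untreated libraries were used. The labels of the IRI 6 h libraries give the same time and library names as those of AKI. With these libraries in place of AKI, the edgeR test called 0 of the 10 genes for either cell type. Of all 16494 genes it called 3809 for UC-MSC and 423 for BM-MSC. At an unadjusted p under 0.05 were 2 of the 10 genes for each, beside 6114 of all genes for UC-MSC and 4190 for BM-MSC. Csf1r was then at -0.19 for UC-MSC (adjusted p = 0.45), a reversed direction, and at 0.37 for BM-MSC (adjusted p = 0.2). Endothelial markers moved beside the members here: all 7 tested were higher in UC-MSC than in AKI and 6 of 7 in BM-MSC, on a list that summed to 638 to 811 CPM in UC-MSC, 531 to 806 CPM in BM-MSC and 118 to 344 CPM in AKI. Ly6c1, the endothelial near copy of Ly6c2, was higher by 1.31 ± 0.21 (adjusted p = 2.0e-04) in UC-MSC and 0.69 ± 0.21 (adjusted p = 0.018) in BM-MSC. Neutrophil markers were higher as well (6 of 6 in UC-MSC and 3 of 6 in BM-MSC). Their part in the results was not tested. AKI 1, BM-MSC 4 and UC-MSC 4 were also left out together, a choice made after the data were seen. Then 7 of the 10 genes were called for UC-MSC and 5 for BM-MSC. Of all 16836 genes, 5014 were higher and 4823 lower for UC-MSC, and 4485 higher and 4026 lower for BM-MSC. Cd68 went opposite ways in this setting, at 0.85 in UC-MSC and -1.03 in BM-MSC.

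Set directly against BM-MSC kidneys, UC-MSC kidneys had less Adgre1 and more Cd68. Adgre1 was at 8.20, 3.08, 8.51 and 1.92 CPM in UC-MSC and 14.8, 12.1, 12.9 and 21.5 CPM in BM-MSC, without overlap, a log2 fold change of -1.48 ± 0.41 (adjusted p = 0.018). Cd68 was at 39.7, 49.4, 80.4 and 19.7 CPM in UC-MSC and 16.7, 13.7, 14.6 and 25.3 CPM in BM-MSC, where UC-MSC 4 lay within the BM-MSC range, a log2 fold change of 1.43 ± 0.44 (adjusted p = 0.029). These were 2 of the 10 genes, against 20.4% of all genes (10.0% higher, 10.4% lower). The Cd68 call was lost in 5 of the 8 fits that left out 1 library and with total counts (adjusted p = 0.057). Without UC-MSC 2 neither gene was called (adjusted p = 0.06 and 0.061). Without BM-MSC 4, which lay closest to a UC-MSC library, Chil3 (3.08) and Arg1 (3.17) were also higher in UC-MSC, beside 1.39 and 1.26 with all libraries. The others were not called either, with Csf1r at -0.56, Cd81 at 0.01, Mrc1 at 0.15, Ly6c2 at 0.22, Spp1 at 0.57 and Gpnmb at 0.66. Without AKI 1, BM-MSC 4 and UC-MSC 4 together, 7 of the 10 were called, where 2919 of all 16836 genes were higher and 3107 lower. Reads of Cd68 per read of Csf1r were 0.901, 1.66, 1.90 and 0.422 in UC-MSC, 0.309, 0.204, 0.278 and 0.378 in BM-MSC, 0.207, 3.14, 1.39 and 2.49 in AKI and 0.0421 to 0.0510 in Control, so that all 4 BM-MSC libraries lay below all 4 UC-MSC libraries.

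Other macrophage genes were also compared between the 2 cell types, where 10.0% of all genes were higher and 10.4% lower in UC-MSC. The counts of the resident and shared myeloid lists lay near these shares. Of 12 resident macrophage genes 2 were higher and 1 lower in UC-MSC than in BM-MSC, and the median of the 12 was -0.27. The higher ones were Cd163 at 1.87 ± 0.37 (adjusted p = 0.0033) and Lyve1 at 1.98 ± 0.33 (adjusted p = 0.0015). Lyve1 is also a gene of sinusoidal or lymphatic endothelium. Of 13 shared myeloid genes 1 was higher and 2 were lower, the lower ones being Aif1 (-1.85 ± 0.53, adjusted p = 0.022) and Cybb, the phagocyte oxidase chain (-1.2 ± 0.35, adjusted p = 0.023). Without BM-MSC 4 neither was called (adjusted p = 0.054 and 0.062). Of 8 genes of alternative activation 4 were higher and 1 lower, with Clec10a, a C-type lectin, at 2.42 and Retnla at 2.35. Of 14 lipid-handling genes 5 were higher, Plin2, which coats lipid droplets, by 3.89. Krt20, a keratin of injured tubules, was higher by 4.02 ± 0.50 (adjusted p = 2.8e-04) at the same time.

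After sham surgery Csf1r rose and Cd81 fell, and Cd68 and Spp1 were not called. Of the 10 genes, 7 passed the count filter in the sham table and 2 were called in sham 24 h against sham control, where 20.8% of 17781 genes were called (7.70% higher, 13.1% lower). Csf1r rose, at 104, 136, 120.1 and 108 CPM in sham 24 h and 83.9, 77.2, 77.2 and 73.9 CPM in sham control, without overlap (0.58 ± 0.10, adjusted p = 6.9e-04). Cd81 fell, at 173, 162, 179 and 189 CPM in sham 24 h and 221, 233, 228 and 223 CPM in sham control (-0.37 ± 0.09, adjusted p = 0.0076). Cd68 was at 3.27, 4.39, 3.92 and 3.82 CPM in sham 24 h and 5.70, 2.03, 1.72 and 3.15 CPM in sham control (0.29 ± 0.38, adjusted p = 0.66), and Spp1 at 429 to 536 CPM in sham 24 h and 403 to 461 CPM in sham control (0.13 ± 0.10, adjusted p = 0.42). Adgre1, Mrc1 and Gpnmb were not called either (-0.94, -0.37 and 0.95). Chil3 had counts of 0, 0, 0 and 24 in sham 24 h and 0, 0, 0 and 0 in sham control, Arg1 of 0, 16, 0 and 0 in sham 24 h and 0, 0, 10 and 3 in sham control, and Ly6c2 of 0, 24, 1 and 12 in sham 24 h and 5, 6, 6 and 17 in sham control. None of these 3 genes passed the filter. Of the ligands of Csf1r, Il34 (-0.98 ± 0.18, adjusted p = 0.0011) and Csf1 (-0.75 ± 0.23, adjusted p = 0.029) both fell, while Csf1r rose. Of 13 tested lipid-handling genes 9 fell and 1 rose, with Lipa at -1.26 and Ctsl, a lysosomal protease, at -1.24.

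Whether IRI and sham surgery differ at 24 h was tested as a difference of differences, each group against its own controls, over 18568 genes in one fit, because the tables were made separately. It called 3 of the 10 genes, against 44.9% of all genes (24.8% higher, 20.1% lower), where the median of all genes was 0.12. Csf1r was lower (-2.50 ± 0.15, adjusted p = 1.3e-11), having fallen after IRI and risen after sham surgery, and Cd68 (2.83 ± 0.37, adjusted p = 1.4e-06) and Spp1 (3.94 ± 0.24, adjusted p = 1.6e-11) were higher. Cd81 was not called (-0.14 ± 0.12, adjusted p = 0.39), with log2 fold changes of -0.60 after IRI and -0.37 after sham surgery. Arg1 was not called (2.75 ± 1.59, adjusted p = 0.17), and without library sham 24 h 2, which held its 16 counts, its adjusted p was 0.0034. Adgre1 (0.85), Mrc1 (1.26), Gpnmb (1.40) and Ly6c2 (0.56) were not called, nor was Chil3 (adjusted p = 0.56), for which no fold is given because its sham control libraries were all at 0. Among pathway genes, 11 of 13 shared myeloid genes were higher, with Cd14 at 2.96 and Fcer1g at 2.76, and the ligand gene Csf1 was higher by 2.39 ± 0.25 (adjusted p = 7.0e-08).

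To place each gene among all others, the 3 names with the smallest root mean square difference in log2 fold change over the comparisons with controls were found, among 10138 names whose log2 CPM averaged 3 or more (10157 for Ly6c2, Chil3 and Arg1, which could not be followed in the sham table). Of these 8 comparisons 7 share the Control libraries, so the values describe and do not test. Cd68 was closest to Mthfd1l, a mitochondrial folate enzyme, at 0.169 log2 units, Spp1 to Smpdl3b (0.564), Cd44 (0.571) and Ccl9 (0.621), and Gpnmb to the chemokine gene Ccl6 (0.394). Cd81 was closest to Slc6a8 (0.106), the creatine transporter, and Csf1r to Tstd2 (0.286). Adgre1 was closest to Rnf213 (0.436) and to the leukocyte gene Lcp1 (0.452), and Mrc1 to Stat3 (0.452) and the leukocyte integrin chain Itgb2 (0.460). Lif and Adam8 were among the 3 closest names of both Chil3 (0.901 and 0.931) and Arg1 (1.11 and 1.11).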

How the data were processed

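Gene counts of 40 kidney samples were read from 3 tables of whole-number counts per gene name that the authors deposited, in 44 library columns because 4 Control libraries stand in both the temporal and the therapy table. Per the submitters' processing notes the counts were made with HTSeq on build GRCm39 (mm39), and DESeq2 is named there. The aligner and whether counting used strand are not given in the sources used here. Lines repeated for a name were reduced to 1 set of counts per name, and 80 names did not enter the fits of the temporal and therapy tables, 74 because their Control counts differed between the tables and 6 because they stood in 1 table.

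Each table was fitted with edgeR 4.0.16 in R 4.3.3: TMM scaling, filterByExpr, the two-sided quasi-likelihood test over all its groups, and Benjamini-Hochberg adjustment over all genes tested, with a threshold of 0.05. IRI and sham surgery were compared as a difference of differences in 1 joint fit. The scripts were tested on simulated data. Alternatives were DESeq2 1.42.0, other scalings, no low-count filter, a replicate block, only the groups compared, names with differing Control counts kept, IRI 6 h libraries in place of AKI, and each library left out in turn. The sham control columns were taken as a group, since their names are those the labels give to the Control samples. Leaving out 3 libraries together was added after the data were seen. The 10 genes and the lists were chosen with earlier results of these data known. All 10 genes were named in every comparison, and from each list up to 4 called genes and up to 2 others with the largest log2 fold changes could be named. Results for some genes are not reported here.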

Additional observations from a re-analysis of the deposited data

Results flagged for a closer look

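Single libraries stood apart from the other 3 of their group by Dixon's criterion in 12 of 98 groups examined, where chance gives about 5%. Library BM-MSC 4 was high for 3 genes, with 88.8 CPM of Chil3, 47.3 CPM of Arg1 and 3.16 CPM of Ly6c2. Library IRI 6 h 1 was high for Chil3 at 80.4 CPM and Spp1 at 15345 CPM. In the other IRI groups AKI 4 was high for Adgre1 at 7.72 CPM and IRI 24 h 2 was low for Cd68 at 30.5 CPM. In Control, library 2 was low for Mrc1 at 3.57 CPM and library 4 high for Ly6c2 at 1.74 CPM. Among sham kidneys, sham 24 h 4 held the group's Chil3 counts at 0.955 CPM, sham 24 h 2 its Arg1 counts at 0.505 CPM, and 1 sham control library was high for Ly6c2 at 0.546 CPM.

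Differences between groups that the edgeR test called were as follows on the log2 scale. From 6 to 24 h after IRI, Cd81 differed by -0.45 and Csf1r by -1.03. From 24 to 48 h Cd81 differed by -1.29, Cd68 by -0.94 and Spp1 by -1.06. Between UC-MSC and BM-MSC kidneys, Adgre1 differed by -1.48 and Cd68 by 1.43. The change after IRI less that after sham surgery at 24 h was -2.50 for Csf1r, 2.83 for Cd68 and 3.94 for Spp1.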

How the results depend on the processing

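Of 2308 member results recomputed under an alternative, 2123 kept their direction and their side of the threshold, 58 were called in neither fit and turned direction, 67 lost and 59 gained a call, and 1 turned round. With IRI 6 h libraries in place of AKI, 0 of the 10 genes were called for BM-MSC and 0 for UC-MSC. Of all 16494 genes 423 and 3809 were called. Under that setting log2 values turned round for BM-MSC in C1qa (-0.16), C1qc (-0.14), Plvap (-0.19), S100a8 (-0.58), Spi1 (-0.35) and Tyrobp (-0.24), and for UC-MSC in C1qc (-0.24), Csf1r (-0.19) and Plvap (-0.33). Without AKI 1, BM-MSC 4 and UC-MSC 4 together, 5014 of all 16836 genes were higher and 4823 lower for UC-MSC against AKI. Members called were then 7 for UC-MSC against AKI, 5 for BM-MSC against AKI and 7 for UC-MSC against BM-MSC. For 24 against 6 h they were 1 with the replicate block, 1 with differing names kept and 6 with only these groups fitted. For 72 against 48 h they were 1 with total counts, 2 with DESeq2 and 2 without a filter. For UC-MSC against BM-MSC they were 1 with total counts and 1 with the replicate block, and for IRI against sham surgery 5 without a filter. Leaving out 1 library gave 1 to 3 for 24 against 6 h, 0 to 1 for 72 against 48 h, 4 to 7 for BM-MSC against Control, 2 to 4 for BM-MSC against AKI, 2 to 6 for UC-MSC against AKI, 0 to 4 for UC-MSC against BM-MSC and 3 to 4 for IRI against sham surgery. The cause of these changes was not tested.

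Same-numbered libraries did not deviate together (every pair above 0.1 in no comparison), so the numbers do not pair the samples and the block is an alternative. The block lost the calls of Mrc1 at 6 h (1.39, adjusted p = 0.063), Arg1 (4.03, 0.076) and Gpnmb (2.39, 0.069) in BM-MSC against Control, Cd81 for 24 against 6 h (-0.46, 0.059) and Cd68 for UC-MSC against BM-MSC (1.39, 0.053). No paired analysis was possible for the sham table, and the planned block was not run there or for IRI against sham surgery, because its control columns bear names that the labels give to the Control samples and so have no number of their own. Genes called over the whole table moved by more than 1.5 times with only the groups compared for 6 h against Control (7449, against 3142 in the fit reported), 24 h against Control (11572, 6998), 24 against 6 h (8286, 4802), 72 against 48 h (26, 943), BM-MSC against Control (4968, 1487), BM-MSC against AKI (3638, 5547) and UC-MSC against AKI (3535, 6726). For 72 against 48 h they were 1484 with total counts, 1707 with DESeq2 and 501 with the replicate block. With IRI 6 h in place of AKI they were 423 for BM-MSC and 3809 for UC-MSC. DESeq2 gave 2388 for BM-MSC against Control. Without the 3 libraries they were 9314 for AKI against Control (5824), 2723 for BM-MSC against Control, 8511 for BM-MSC against AKI and 6026 for UC-MSC against BM-MSC (3402). Leaving out 1 library gave 592 to 1485 for BM-MSC against Control and 1946 to 4214 for UC-MSC against BM-MSC.

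Total counts moved the median of all genes by up to 0.27 (BM-MSC against AKI). The percent of called genes that were higher was then 73.7 (48.8 with TMM) there, 42.2 (57.0) for AKI against Control, 71.1 (54.8) at 6 h, 16.1 (35.8) for 72 against 48 h, 60.8 (50.2) for UC-MSC against AKI, 33.7 (49.0) for UC-MSC against BM-MSC and 23.4 (37.0) for sham surgery, and with DESeq2 size factors 54.4 (42.7) for 48 against 24 h. Libraries at 0 counts limit what can be said of Ly6c2, Adgre1 and Gpnmb at 48 or 72 h, in shallow libraries, and of Chil3, Arg1 and Ly6c2 in the deeper sham table.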
